A study of Mus musculus with 26 samples.

Results

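Homeostatic microglia are recognised by a set of genes that the cells switch on as they settle in the brain and keep on while the tissue is undisturbed. The 9 genes described here are P2ry12, P2ry13, Tmem119, Cx3cr1, Siglech, Gpr34, Olfml3, Fcrls and Sparc. They were chosen by symbol from the 31053 genes counted in the sorted cells, and all 9 were found.

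Microglia descend from yolk sac macrophages that enter the brain before the cortex has layers, and they depend on the receptor encoded by Csf1r. Under signals of the tissue, TGF-beta among them, they take on an identity that sets them apart from the macrophages of the brain's borders. Loss of these 9 genes from the transcriptome is widely read as a sign of reactive microglia in the adult brain, which is why they are of interest after maternal inflammation.

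Dams were treated on E12.5, with saline as the control and Poly(I:C) as the challenge. Poly(I:C) is an RNA mimic of viral infection and produces maternal immune activation (MIA). Microglia of wild-type C57Bl/6N offspring were sorted from the somatosensory cortex as CD11b-positive, CX3CR1-positive and CD45-low cells, so the protein of one of the genes took part in the gate. There were 3 saline and 3 MIA libraries at E13, 3 and 3 at E15, and 4 and 2 at P14. The labels write these embryonic ages as whole days, where the study's text writes them with the decimal used in E12.5. The embryonic libraries were pools of embryos of both sexes, and saline replicates 3F and 3M at P14 came from females and males. These 2 share a replicate number and were counted as 2 of the 4 P14 saline libraries. Nuclei of the E15.5 somatosensory cortex of male embryos, wild type or Csf1r-/-, after saline or MIA, gave 2 libraries in each of 4 groups. Which libraries were prepared and sequenced together is not given in the sources used here. The part of preparation in differences between ages can therefore not be assessed. The study's text names sequencing batch as a covariate in its microglia fits at each age. Nothing in the labels says whether libraries of 1 group came from separate dams, and p-values measure only the spread between these libraries. For the nuclei, the study's text gives a total of 4 dams, with wild-type littermates as controls. Nuclei libraries of both genotypes can therefore share a dam, which the main fit of the nuclei does not model.

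The microglia libraries held 67847 cells after a filter on genes (500 or more a cell) and on mitochondrial UMIs (20% or less), and between 6160925 and 105751888 UMIs each. A UMI, or unique molecular identifier, stands for 1 captured RNA molecule. Levels are given as CPM, the UMIs of a gene per 1000000 UMIs of its library, from counts summed over the cells, and are compared between libraries for the same gene only. All 6 markers of microglia and macrophages were counted in every microglia library, with summed levels of 13501 to 15051 CPM at E13, 20400 to 25535 at E15 and 33729 to 41164 at P14. Of the 153 pairs of microglia libraries, 21 shared over 1% of the cell barcodes of the smaller library, and these pairs involved 10 libraries. Some lay among replicates 1 of E13 saline, E13 MIA, P14 saline and P14 MIA. The rest lay among replicates 2 of E13 saline and E13 MIA, replicates 3 of E15 saline and E15 MIA, and P14 saline 3F and 3M. The sharing thus crossed ages, and its cause was not tested. E13 MIA replicate 2 shared 258 of its 375 barcodes with P14 saline replicate 3F, and all 258 had more UMIs in the E13 library. Keeping each shared barcode only in the library where it had most UMIs left out 1828 cells, at most 16.2% of the cells of a library (E15 MIA replicate 3). Under this setting, chosen after the data had been seen, each microglia comparison called the same number of the 9 genes.

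P2ry12 and P2ry13 encode receptors for extracellular nucleotides, through which microglial processes sense injured or active cells. They are neighbours on chromosome 3 of GRCm38, P2ry12 at 59216272 to 59262871 and P2ry13 at 59207892 to 59210882, both on the minus strand within the span of Med12l, which runs the other way. The distance between both genes is 5390 bases. Fcrls (87250758 to 87263738) and Olfml3 (103722222 to 103738001) lie on the same chromosome. Tmem119 is on chromosome 5, Siglech on chromosome 7, Cx3cr1 on chromosome 9, Sparc on chromosome 11 and Gpr34 on chromosome X. Gpr34 overlaps Cask, which runs the other way. Cx3cr1 overlaps 3 genes on its own strand (Gorasp1, Csrnp1 and Xirp1) and 6 on the opposite strand.

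RefSeq promoters of GRCm38.p6 were matched by symbol for 7 of the 9 genes. Their last 250 bases before the start were searched on both strands for GGAAGT and GAGGAA, short letters of the ETS family to which the myeloid factor PU.1 belongs. The motifs can overlap in part. At least 1 of them was found in 4 of the 7 genes and in 36.7% of all 32851 promoters, so a match is common and is given as a description. These 4 promoters are shown 5′ to 3′ on the strand of the gene, with the matches in capitals, because they include the neighbours P2ry12 and P2ry13, of which P2ry12 passed the test between E13 and E15 in saline and P2ry13 did not. The RefSeq start of P2ry12 lies upstream of the GENCODE gene whose coordinates are given above. Those of Fcrls and Siglech lie inside their GENCODE genes, so most of the Fcrls window and the end of the Siglech window overlap the gene. The windows searched for Cx3cr1 and Sparc lie wholly inside theirs. The regions are chr3:59262986-59263235 for P2ry12, chr3:59210883-59211132 for P2ry13, chr7:55767934-55768183 for Siglech and chr3:87263525-87263774 for Fcrls.
P2ry12: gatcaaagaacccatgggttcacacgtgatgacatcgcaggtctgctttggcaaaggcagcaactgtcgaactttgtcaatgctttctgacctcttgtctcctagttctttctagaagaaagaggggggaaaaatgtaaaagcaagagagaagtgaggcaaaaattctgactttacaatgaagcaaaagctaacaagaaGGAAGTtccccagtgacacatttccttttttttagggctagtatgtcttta
P2ry13: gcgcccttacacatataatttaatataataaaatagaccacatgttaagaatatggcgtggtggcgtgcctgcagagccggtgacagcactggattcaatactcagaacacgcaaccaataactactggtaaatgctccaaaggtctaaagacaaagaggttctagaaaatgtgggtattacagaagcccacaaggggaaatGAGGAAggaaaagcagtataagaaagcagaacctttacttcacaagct
Siglech: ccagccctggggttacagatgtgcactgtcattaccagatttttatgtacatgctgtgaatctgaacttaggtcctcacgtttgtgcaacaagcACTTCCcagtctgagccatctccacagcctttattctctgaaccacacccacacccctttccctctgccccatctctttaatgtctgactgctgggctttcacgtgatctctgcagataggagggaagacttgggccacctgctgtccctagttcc
Fcrls: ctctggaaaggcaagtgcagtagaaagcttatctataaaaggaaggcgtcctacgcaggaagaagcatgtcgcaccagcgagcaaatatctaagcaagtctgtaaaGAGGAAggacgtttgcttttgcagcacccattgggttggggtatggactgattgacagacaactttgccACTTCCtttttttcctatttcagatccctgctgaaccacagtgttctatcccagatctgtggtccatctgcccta

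With the base before the start counted as -1, the match of P2ry12 (GGAAGT) begins at -51 and that of P2ry13 (GAGGAA) at -48, both on the strand of the gene. Fcrls holds GAGGAA at -144 and GGAAGT on the opposite strand at -75, and Siglech holds GGAAGT on the opposite strand at -156. The windows of Cx3cr1, Olfml3 and Sparc hold neither run of letters.

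The first question was how the signature changes as microglia mature. In saline microglia 7 of the 9 genes rose from E13 to E15 and 9 of 9 rose from E15 to P14. None fell. Across all 14232 genes tested, 16.2% were called higher and 12.4% lower at E15 than at E13, and 26.8% were called higher and 26.7% lower at P14 than at E15. Every E15 library lay above every E13 library for 7 of the 9 genes (23.1% of all genes tested), and every P14 library above every E15 library for 9 of 9 (36.5%). These p-values are from edgeR's quasi-likelihood test with Benjamini-Hochberg adjustment, as are all adjusted p-values given for the 9 genes. The median log2 fold change of the 9 genes was 0.76 from E13 to E15 and 1.38 from E15 to P14, beside medians of 0.03 and 0.04 over all genes tested.

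Other measures of the microglia libraries, taken over both treatments, also moved with age. The median UMIs per cell of a library were 7860 to 24493.5 at E13, 8482.5 to 11721 at E15 and 3682 to 6787 at P14. CPM is a share, so a rise in CPM need not be a rise in UMIs per cell. The mitochondrial share of UMIs was 2.30% to 5.03% at E13, 2.30% to 4.42% at E15 and 1.36% to 1.56% at P14. The summed level of 6 markers of dividing cells went from 1250 to 1796 CPM at E13 down to 390 to 1429 at E15 and 20.3 to 173 at P14 (18.9 to 69.0 without shared barcodes), and that of 8 markers of border-associated macrophages from 274 to 1682 down to 189 to 563 and 90.5 to 154 (89.99 to 123 without shared barcodes). Markers of other brain cells did not move alike. Those of 2 lists were higher at P14, with 117.9 to 184.9 CPM over 5 markers of apical progenitors and astrocytes (6.91 to 22.7 at E13, 16.9 to 79.5 at E15) and 35.2 to 116 CPM over 4 markers of oligodendrocytes (7.36 to 9.83 and 11.2 to 16.2). The 6 neuronal markers were lowest at P14, at 12.97 to 28.6 CPM (34.2 to 161 at E13, 129 to 1723 at E15), and 7 markers of endothelium and pericytes, at 31.7 to 41.6 CPM, lay within their range at E15 (19.8 to 42.3). All markers of the 4 lists of dividing cells, border macrophages, apical progenitors and astrocytes, and oligodendrocytes were found among the genes counted, though up to 2 of the 4 oligodendrocyte markers were at 0 in an E13 library and 1 of the 8 border macrophage markers in an E15 library. Their part in the result was not tested.

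P2ry12 roughly doubled from E13 to E15 and was higher again at P14. No library lies between E15 and P14, so this later step spans birth for every gene. Its levels in the saline libraries were 901, 885 and 834 CPM at E13, 1461, 1816 and 2101 at E15, and 5791, 6055, 5862 and 5894 at P14. The 3 ages did not overlap. The log2 fold change was 1.00 ± 0.11 (SE) from E13 to E15 (adjusted p = 0.000289) and 1.54 ± 0.11 from E15 to P14 (adjusted p = 1.75e-06).

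P2ry13, its neighbour, showed no change that passed the test between E13 and E15. It stood at 166, 168 and 177 CPM in saline at E13 and at 140, 241 and 283 at E15, where replicate 1 was below all E13 libraries and the other 2 were above them. The change from E13 to E15 had a log2 fold change of 0.33 ± 0.19 (adjusted p = 0.214), and without E15 saline replicate 1 it was 0.54 ± 0.12 (adjusted p = 0.00617). At P14 P2ry13 reached 638, 837, 654 and 736 CPM, above every E15 library, a log2 fold change of 1.52 ± 0.19 (adjusted p = 7.62e-05).

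Cx3cr1, the receptor for the neuronal chemokine fractalkine, was the other gene that did not pass between the embryonic ages. In saline it was counted at 2283, 1737 and 1931 CPM at E13 and at 1497, 2555 and 2603 at E15. The ages overlapped because E15 replicate 1 lay lowest of all 6 libraries, and the log2 fold change was 0.13 ± 0.19 (adjusted p = 0.644). At P14 the levels were 4367, 5120, 3829 and 4032, all above E15, with a log2 fold change of 0.79 ± 0.18 (adjusted p = 0.00319).

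Sparc, a secreted protein of the extracellular matrix, had the largest embryonic change of the 9. It rose from 560, 596 and 666 CPM in saline at E13 to 1710, 2541 and 2890 at E15, and stood at 7499, 5953, 7533 and 7505 at P14. Neither step overlapped. The log2 fold changes were 1.93 ± 0.18 (adjusted p = 0.000129) and 1.41 ± 0.17 (adjusted p = 5.42e-05). Olfml3, the other secreted glycoprotein of the set, ranged from 465 to 548 CPM in saline at E13, from 810 to 915 at E15 and from 1936 to 2364 at P14, and its log2 fold changes were 0.76 ± 0.13 (adjusted p = 0.00252) and 1.10 ± 0.13 (adjusted p = 4.60e-05).

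Tmem119, a transmembrane protein used to tell microglia from other macrophages, had the largest step of the 9 from E15 to P14 in saline. Its saline levels were 158, 180 and 214 CPM at E13, 302, 326 and 417 at E15, and 1444, 1383, 1380 and 1437 at P14. The E13 to E15 step was 0.88 ± 0.14 in log2 (adjusted p = 0.00177) and the E15 to P14 step 1.84 ± 0.14 (adjusted p = 2.87e-06), and no 2 ages overlapped.

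Siglech, which encodes a member of the Siglec family, stood at 326, 335 and 339 CPM in saline at E13. Its saline levels were 414, 696 and 795 at E15 and 1448, 1521, 1400 and 1459 at P14. It rose by 0.89 ± 0.18 in log2 (adjusted p = 0.00462) and then by 1.02 ± 0.17 (adjusted p = 0.000445). Gpr34, a receptor for lysophosphatidylserine, ranged from 455 to 535 CPM at E13, from 688 to 830 at E15 and from 2151 to 2522 at P14, with log2 steps of 0.64 ± 0.12 (adjusted p = 0.00327) and 1.38 ± 0.11 (adjusted p = 4.80e-06).

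Fcrls, an Fc receptor-like protein, changed least of the 9 from E15 to P14. It was counted at 1261, 1469 and 1538 CPM in saline at E13, at 1886, 2163 and 2095 at E15 and at 2803, 2923, 2981 and 2883 at P14. The ages stood apart, yet the steps were small, 0.49 ± 0.11 in log2 (adjusted p = 0.00735) and 0.31 ± 0.10 (adjusted p = 0.0217). The second call was lost without any 1 of the 3 E15 saline libraries or without P14 saline replicate 3F (log2 fold changes of 0.27, 0.33, 0.30 and 0.30).

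**Figure D1:**
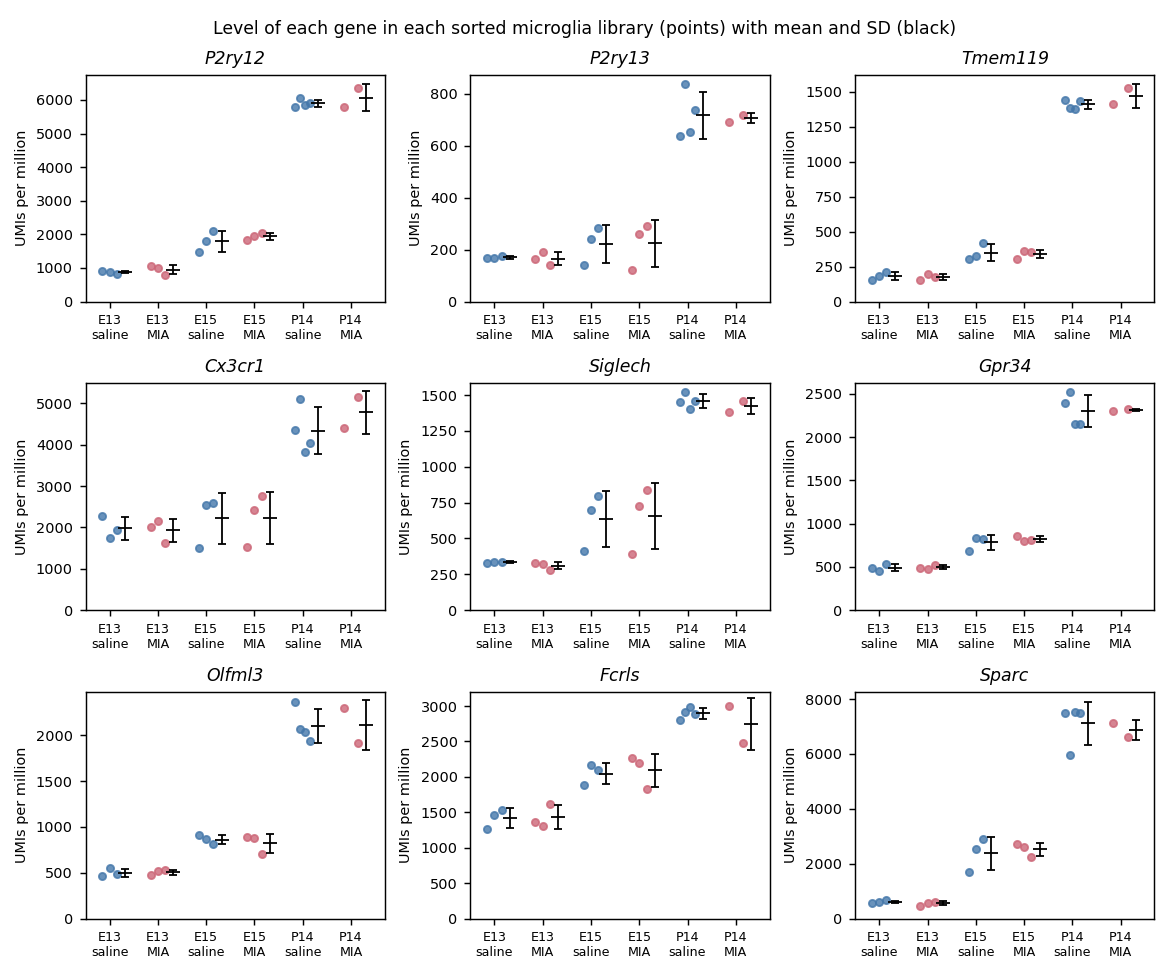
Level of each of the 9 genes, in CPM on a linear axis from 0, in every sorted microglia library (points, blue for saline and red for MIA), with the mean and SD of each group in black. P14 libraries lie above all embryonic libraries for each gene, and E15 replicate 1 of both treatments lies low for P2ry13, Cx3cr1 and Siglech.

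After MIA the same course was seen with fewer calls, which were made on 3, 3 and 2 libraries. From E13 to E15, 6 of the 9 genes rose (7.39% of 14572 genes tested were called higher and 7.80% lower), and from E15 to P14 8 of the 9 rose (12.8% called higher and 14.6% lower). P2ry12 rose from 1046, 1009 and 793 CPM at E13 to 1842, 1952 and 2031 at E15 and to 5780 and 6353 at P14. Sparc rose from 477, 587 and 619 to 2719, 2606 and 2247 and to 7117 and 6605, and its embryonic log2 fold change was 2.18 ± 0.16 (adjusted p = 0.00119). Tmem119 stood at 157, 195 and 176, then at 305, 361 and 353, then at 1413 and 1531, and its later step was 1.99 ± 0.15 (adjusted p = 0.000176). As in saline, P2ry13 (0.46 ± 0.29, adjusted p = 0.287) and Cx3cr1 (0.23 ± 0.22, adjusted p = 0.493) did not pass between the embryonic ages. Fcrls did not pass at either step, with log2 fold changes of 0.55 ± 0.17 (adjusted p = 0.0617) and 0.27 ± 0.19 (adjusted p = 0.323).

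In MIA some calls were lost when 1 library was left out. Without P14 MIA replicate 1 or without replicate 2 that arm held 1 library, assumed to vary like the other groups. P2ry13, Siglech and Cx3cr1 then lost their calls between E15 and P14, and the number of all genes called fell as well. Their log2 fold changes were 1.53 ± 0.40 and 1.499 ± 0.40, 1.01 ± 0.36 and 0.95 ± 0.36, and 1.05 ± 0.32 and 0.85 ± 0.32. With all libraries they were 1.53 ± 0.32, 0.995 ± 0.28 and 0.97 ± 0.24. Siglech lost its call between E15 and P14 also without E13 MIA replicates 1 or 2 or E15 MIA replicate 2 (1.00, 0.98 and 1.09). It lost its embryonic call without any 1 of the 3 E13 MIA libraries or without E15 MIA replicate 2 (log2 fold changes of 1.14, 1.09, 1.05 and 0.98), and Olfml3 without E13 MIA replicates 1 or 2 or E15 MIA replicate 2 (0.67, 0.70 and 0.65). P2ry13 gained a call between E13 and E15 without E15 MIA replicate 1, at 0.75 ± 0.14 (adjusted p = 0.00464), and Fcrls without E15 MIA replicate 3, at 0.64 ± 0.19 (adjusted p = 0.0454).

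E15 replicate 1 stood apart in both treatments. Cx3cr1 was at 1497 (saline) and 1531 (MIA) CPM there and at 2421 to 2754 in the other 4 E15 libraries. Siglech was at 414 and 395 against 696 to 836, and P2ry13 at 140 and 123 against 241 to 292. Gpr34, Olfml3 and Fcrls showed no such gap in both treatments. The summed level of 6 markers of dividing cells was 1429 CPM in E15 saline replicate 1 and 390 in E15 MIA replicate 1, against 407 to 586 in the others, and that of 6 neuronal markers was 342 and 1723 against 129 to 453. The part of these in the result was not tested.

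The second question was whether MIA changed the signature at each age. No gene was called at E13 (0% of 12994 tested, 101 at an unadjusted p under 0.05), at E15 (0% of 14020, 54) or at P14 (0% of 13640, 417), so none of the 9 genes was. DESeq2 called 2 genes at E13, 0 at E15 and 1 at P14, and none of the 9. E13 MIA replicates 1 and 2 held 280 and 375 cells, against 6375 in replicate 3. The study reported genes that differed after MIA at each age. Its fits split the sums by sex and had sex and sequencing batch as covariates. The log2 fold changes of the 9 genes, MIA minus saline, lay between -0.13 (Sparc) and 0.10 (P2ry12) at E13, between -0.08 (Olfml3) and 0.11 (P2ry12) at E15, and between -0.06 (Fcrls) and 0.16 (Cx3cr1) at P14. Their medians were -0.06, 0.02 and 0.02, beside 0.01, 0.01 and -0.00 over all genes.

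How small a change could have been missed differs between ages. Over the 9 genes the approximate 95% intervals (1.96 SE on either side) reached from 0.752-fold to 1.29-fold at E13 and from 0.832-fold to 1.33-fold at P14. At E15 they reached from 0.606-fold to 1.70-fold, both for P2ry13, whose E15 libraries spread most. With the replicate number as a block, which takes same-numbered E15 libraries as pairs, P2ry13 gave a log2 fold change of -0.03 ± 0.11 and the widest interval at E15 was that of Sparc, from 0.807-fold to 1.43-fold. A change of 2-fold in any of the 9 genes lies outside these intervals.

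The MIA and saline libraries overlapped for each of the 9 genes at every age, where 2.32% of all genes tested lay higher without overlap and 1.36% lower at E13, 1.54% and 1.01% at E15, and 4.88% and 5.40% at P14. Tmem119, for example, stood at 184 ± 28.5 CPM (SD, n = 3) in E13 saline and at 176 ± 19.0 (n = 3) in E13 MIA, at 349 ± 60.5 and 340 ± 29.9 at E15, and at 1411 ± 34.5 (n = 4) and 1472 ± 83.1 (n = 2) at P14. Cx3cr1 at P14, the largest of the differences, stood at 4337 ± 567 in saline (n = 4) and at 4785 ± 519 in MIA (n = 2). Differences between ages in the response to MIA were tested directly, and no gene was called. The share called was 0% of 15121 genes for E15 minus E13 and for P14 minus E15. An unadjusted p under 0.05 was reached by 89 and 181 genes. DESeq2 also called 0 genes in each. For the 9 genes these differences lay between -0.08 (Olfml3) and 0.22 (Sparc) for E15 minus E13. For P14 minus E15 they lay between -0.12 (Sparc) and 0.16 (Cx3cr1). Intervals of 1.96 SE on either side reached from 0.655-fold to 1.72-fold for E15 minus E13, both for P2ry13. For P14 minus E15 they reached from 0.601-fold (P2ry13) to 1.68-fold (Cx3cr1). Differences in response within these intervals could have been missed.

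**Figure D2:**
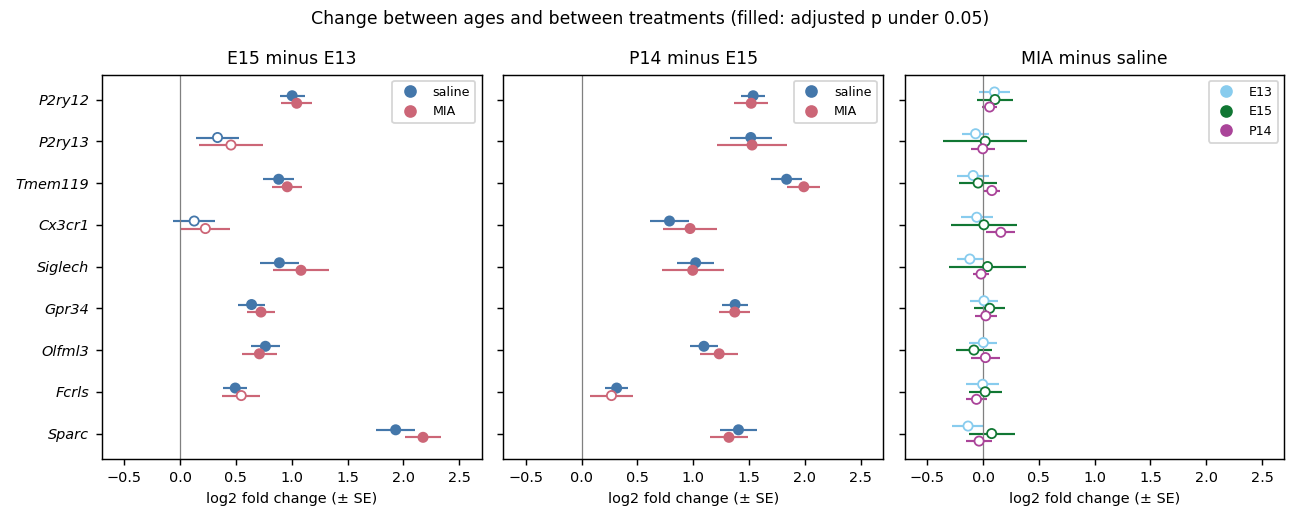
Log2 fold change of each gene with its SE from the edgeR fits, between ages (left and middle, blue for saline and red for MIA) and between treatments at each age (right). Filled points have an adjusted p under 0.05, and none of the 27 points between treatments is filled.

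Other genes of the microglial programme, in lists chosen with earlier results of these data known, moved between ages as well. Of 25 further signature genes, 21 rose and 0 fell from E13 to E15 in saline, and 19 rose and 0 fell from E15 to P14, beside 16.2% and 26.8% of all genes tested called higher. Crybb1 (1.94 ± 0.21), Ltc4s (1.69 ± 0.13), Selplg (1.23 ± 0.12) and C1qa (0.78 ± 0.11) had the smallest p-values at the first step, all with adjusted p under 0.05. At the second step these were Adgrg1 (2.89 ± 0.24), Selplg (2.82 ± 0.12), Cst3 (2.27 ± 0.17) and Vsir (1.53 ± 0.12). In MIA 17 of the 25 rose at each step and 0 fell, beside 7.39% and 12.8% of all genes called higher.

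Of 11 regulators of the signature, which include the TGF-beta pathway and transcription factors of microglia, 3 rose from E13 to E15 in saline and 1 in MIA, and 9 rose from E15 to P14 in saline and 7 in MIA. None fell at either step. Over all genes tested the shares called higher were 16.2% in saline and 7.39% in MIA at the first step and 26.8% and 12.8% at the second, so the 1 of 11 in MIA is near the background. Among those that rose from E15 to P14 in saline were Smad3 (1.46 ± 0.12), a transcription factor that carries the TGF-beta signal, Mef2a (1.41 ± 0.15), a transcription factor of the MEF2 family, and the receptor gene Tgfbr1 (1.23 ± 0.14), all with adjusted p under 0.05.

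Genes of reactive and axon tract microglia went the other way between E15 and P14. Of 11 tested, 9 fell from E15 to P14 in saline and 9 in MIA, beside 26.7% and 14.6% of all genes tested called lower. In saline Fabp5 fell by 3.68 ± 0.28 and Apoe fell by 2.40 ± 0.15 on the log2 scale. From E13 to E15 in saline 1 of the 11 rose (Cd63, 0.45 ± 0.14) and 1 fell (Lpl, -1.45 ± 0.18), near the background of 16.2% and 12.4%. Of 8 genes induced by tissue dissociation, 1 rose and 0 fell from E13 to E15 in saline, and 1 rose and 5 fell from E15 to P14. The share at the first step was near the background of 16.2%, and at the second 26.8% of all genes were called higher and 26.7% lower. Ccl3 fell by 3.71 ± 0.43 and Hspa1a fell by 2.87 ± 0.55. In MIA 4 of the 8 fell at the second step, beside 14.6% of all genes. The part of the dissociation genes in the change of the signature between E15 and P14 was not tested. A further list held genes for ligands in the cortex, TGF-beta and those of the receptor encoded by Csf1r among them. Of 4 tested, 1 rose and 0 fell at the first step in saline, and 2 rose and 2 fell at the second. Between treatments no gene of any list was called, as no gene at all was. At E15 all 8 dissociation genes and all 11 reactive genes had log2 fold changes above 0 after MIA, with medians of 0.66 and 0.42 beside 0.01 over all genes. The highest were Fos (3.73 ± 1.42) and Spp1 (1.99 ± 1.16). Fos was at 74.2 CPM in E15 MIA replicate 1, at 1.55 and 2.41 in the other 2 MIA libraries and at 1.47 to 2.49 in saline, and Spp1 was at 932.5, at 61.1 and 53.9, and at 44.7 to 162. The high values were thus those of 1 library, and the groups overlapped.

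The share of cells with at least 1 UMI of a gene was taken after each cell had been thinned to 2000 UMIs. At a fixed depth this share also follows the level of the gene. It therefore does not tell more cells with a gene from more RNA of it per cell. Cells below that depth were left out, 1501 of 6364 in E13 saline, 1639 of 13680 in E15 saline and 1256 of 19232 in P14 saline. The share with P2ry12 was 71.4% ± 0.91 (SD, n = 3) in E13 saline, 87.3% ± 3.6 (n = 3) in E15 saline and 98.5% ± 0.62 (n = 4) in P14 saline. Without thinning these were 85.1%, 90.8% and 98.0%. Sparc went from 54.7% ± 2.9 to 86.7% ± 4.9 and 98.5% ± 0.93, and Tmem119 from 29.2% ± 3.0 to 44.9% ± 5.4 and 90.2% ± 1.1.

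P2ry13 had the lowest share at P14, 72.8% ± 4.4 in saline and 72.3% ± 0.92 in MIA (n = 2). Cx3cr1 and Fcrls were counted in 85.8% ± 3.3 and 86.2% ± 2.9 of cells in E13 saline, so that most cells had a UMI of these 2 genes at the earliest age. In the MIA libraries the share with P2ry12 was 69.7% ± 2.1, 83.0% ± 6.0 and 99.1% ± 0.15 at E13, E15 and P14.

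Free RNA was gauged in cells that carried at least 3 of 6 neuronal markers and none of 6 microglia and macrophage markers. In 87 such cells at E13 (median 1759 UMIs) the share with P2ry12 was 5.75% and that with Fcrls, the highest of the 9, 21.8%. In 244 such cells at E15 (median 2081 UMIs) the highest was 15.2%, for Sparc. At P14 there were 8 such cells, too few for a share. Cells without a UMI of the 6 microglia markers are those that hold little free microglial RNA, so these shares may be below the background in other cells.

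**Figure D3:**
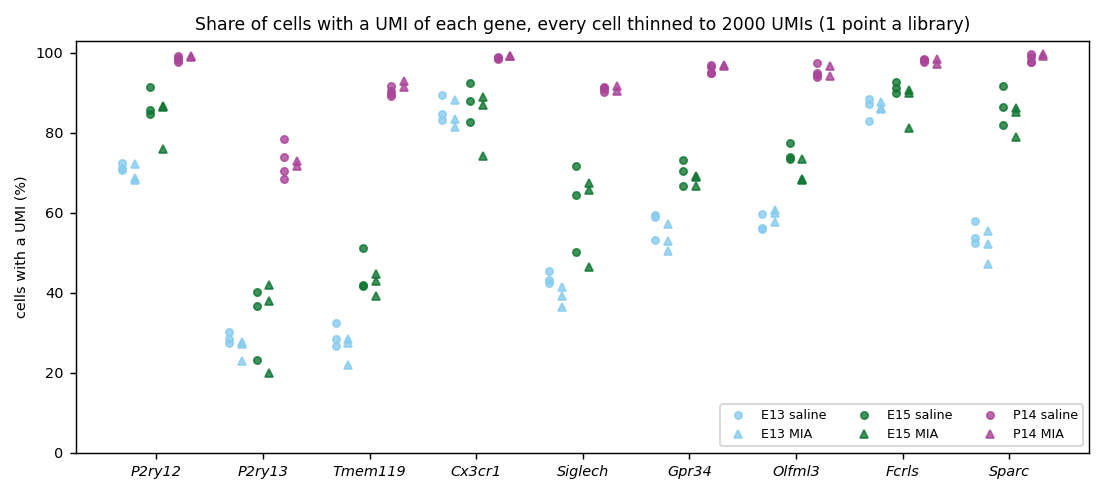
Share of cells with at least 1 UMI of each gene after thinning each cell to 2000 UMIs, 1 point a library, by age (colour) and treatment (circles for saline, triangles for MIA), on a linear axis in percent. P14 lies at 72.8% for P2ry13 and at 90.2% or above for the other 8 genes (saline means), and E13 and E15 libraries overlap for P2ry13, Cx3cr1 and Fcrls.

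A cell thinned to 2000 UMIs held on average 5.14 ± 0.08 of the 9 genes in E13 saline (SD over libraries, n = 3), 6.38 ± 0.39 in E15 saline and 8.39 ± 0.06 in P14 saline (n = 4). After MIA the means were 4.96 ± 0.06, 6.11 ± 0.52 and 8.43 ± 0.01. Cells with all 9 genes made up 1.87% of E13 saline cells, 8.25% of E15 saline cells and 58.7% of P14 saline cells on average. Cells with none made up 2.46%, 2.30% and 0.300%. In E15 MIA cells with none reached 10.1% in replicate 1, and were 2.74% and 2.32% in the others. That library had the highest summed level of neuronal markers at E15, 1723 CPM, and 5100 of its 5803 cells carried at least 3 of 6 microglia markers, against 3399 of 3600 and 1411 of 1471 in replicates 2 and 3. The part of these in the result was not tested. Leaving out shared barcodes moved the P14 saline mean from 8.39 to 8.47. Thinned to 1000 UMIs, cells with all 9 genes made up 0.0311%, 1.14% and 19.9% of E13, E15 and P14 saline cells on average. The number of genes per cell thus follows depth and level, as the shares do.

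The sorted cells included some with markers of border-associated macrophages, the relatives of microglia in the meninges and around vessels. The study removed the meninges. In its atlas of embryonic microglia it named a cluster with such markers Ms4a7-expressing microglia. It also located Ms4a7-expressing microglia within the cortex by in situ hybridization. Among cells with at least 3 of 6 microglia markers and no shared barcodes counted again, 1705 of 12605 cells at E13, 1620 of 22438 at E15 and 67 of 28564 at P14 carried at least 3 of 8 such markers. This is a range cut from a count, not a type, and 2531 cells at E13 and 3784 at E15 lay just below the cut with 2 markers. Sparc and P2ry12 were lower in these cells than in the rest of the same library in all 6 libraries at each age. The median ratio of Sparc was 0.344 at E13, 0.366 at E15 and 0.703 at P14, and that of P2ry12 was 0.516, 0.542 and 0.654.

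By median ratio these were the lowest of the 9 genes at E13 and E15. At P14 Tmem119 was lowest, at 0.636, and P2ry13 stood at 0.689. Tmem119 and Siglech were lower in all 6 libraries at each age, with median ratios of 0.780 and 0.648 at E13. Fcrls was lower in 0 of 6 libraries at E13 and in 1 of 6 at E15, with median ratios of 1.12 and 1.08. Cx3cr1 was close to even, with median ratios of 0.899, 0.935 and 0.785, and was lower in 4, 5 and 6 of 6 libraries.

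Cells with at least 3 of 6 markers of dividing cells numbered 7233 at E13, 3787 at E15 and 80 at P14. At E15 all 9 genes but Tmem119 (4 of 6) were lower in these cells in all 6 libraries, with median ratios from 0.676 for Siglech to 0.914 for Tmem119. At E13 the ratios lay nearer to 1, from 0.827 for P2ry13 and Sparc to 1.07 for Cx3cr1, which was higher in dividing cells in all 6 libraries. At P14 the median ratio of Siglech was 0.501 and that of P2ry12 0.547, from few cells. A cut on the number of markers counted picks deeper cells. In dividing-marker cells the median UMIs of a library were 15466.5 to 34004 at E13, 13236 to 17843 at E15 and 6784 to 14076 at P14, against 2217 to 14295, 8629 to 11672 and 3714 to 6845 in the rest. In border-marker cells they were 11538 to 30579 at E13 and 10018 to 17641.5 at E15, against 7399 to 20540 and 8816 to 11830. The ratios are therefore a description, and the part of depth in them was not tested.

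**Figure D4:**
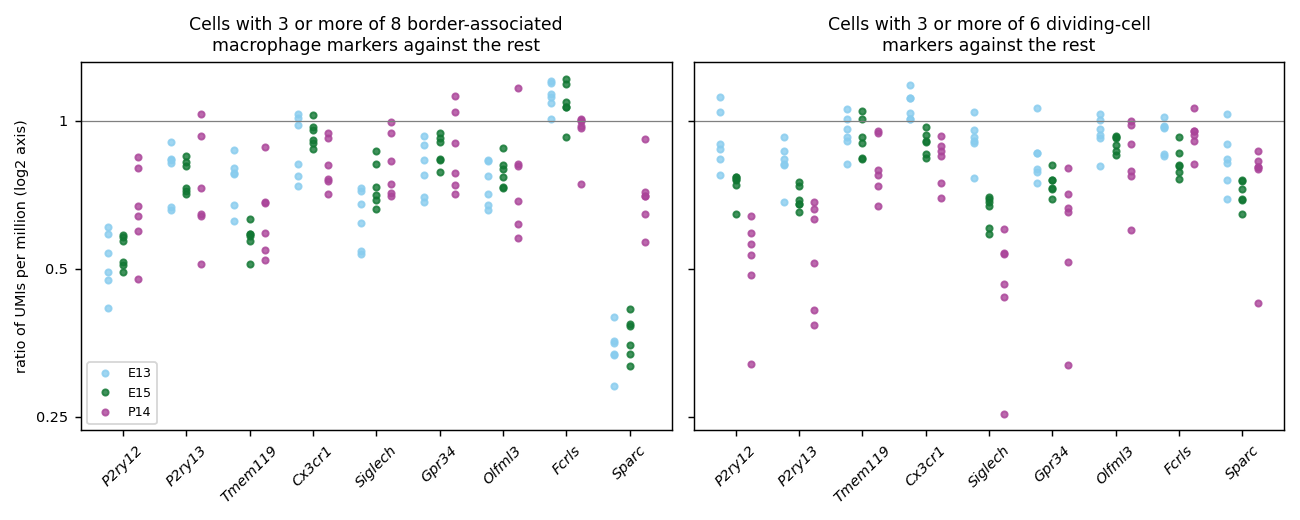
Ratio of the level in cells with at least 3 markers of border-associated macrophages (left) or of dividing cells (right) to the level in the rest of the same library, 1 point a library, by age, on a log2 axis with a line at 1. Sparc and P2ry12 have the lowest medians on the left at E13 and E15, and Fcrls lies at or above 1 in most embryonic libraries.

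Over the 18 microglia libraries the 9 genes were correlated, with Pearson's r of log2(CPM + 1) between 0.741 (Cx3cr1 and Fcrls) and 0.993 (Tmem119 and Gpr34). The points share age and depth, so these values carry no test. Among 14150 genes with at least 10 UMIs in every library of a group, those most like each member were Vsir (0.998) and Selplg (0.996) for Tmem119, A830008E24Rik (0.996) and Mgll (0.994) for P2ry12, Sgk1 and Cst3 (both 0.997) for Gpr34, and Cd37 (0.996) and Akap8l (0.993) for Sparc. For the other members they were Arsk and Tmem64 (both 0.995) for P2ry13, Snx13 and Ano6 (both 0.987) for Cx3cr1, Fbxl20 (0.993) and Abcb4 (0.991) for Siglech, Blnk (0.994) and Gm5086 (0.992) for Olfml3, and Camk1 (0.983) and Tmem59 (0.981) for Fcrls.

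The third question was what remains of the signature in cortex that lacks Csf1r. The 8 nuclei libraries held 43456 nuclei past a filter of 500 UMIs and 200 genes a nucleus, and between 9897721 and 17605575 UMIs each. Csf1r itself was counted with 23 and 11 UMIs in wild-type saline replicates 1 and 2, 23 and 1 in the libraries labelled wild-type MIA, 4 and 10 in those labelled Csf1r-null saline, and 2 and 1 in Csf1r-null MIA. Replicate 2 of the nuclei labelled wild-type MIA and replicate 2 of those labelled Csf1r-null saline thus went against what their labels say, and both are kept under their labels here. Replicates 1 and 2 of the nuclei also differ in software version, gene list and barcode filter.

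Within replicate 1, where no library went against its label, 3 of the 9 genes had no UMI in the Csf1r-null libraries. Cx3cr1 had 28 and 18 UMIs in the wild-type saline and MIA libraries and 0 and 0 in the null ones, Siglech 25 and 19 against 0 and 0, and Fcrls 24 and 24 against 0 and 0. With a floor of 3 counts over both null libraries, Cx3cr1 was at least 14.8-fold lower, Siglech at least 14.1-fold and Fcrls at least 15.4-fold. The exact 95% intervals of the null to wild-type ratio, which cover counting error only, reached up to 0.0867, 0.0908 and 0.0829, so a smaller fold is also within counting error. P2ry12 had 26 and 20 UMIs against 1 and 2, a null to wild-type ratio of 0.0677 (exact 95% interval for counting error 0.0135 to 0.211).

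The other 5 genes kept UMIs in the null libraries of replicate 1. Sparc had 540 and 352 UMIs in wild type and 212 and 208 in null, a ratio of 0.489 (0.434 to 0.549). Olfml3 had 72 and 106 against 76 and 119, a ratio of 1.14 (0.923 to 1.40). Gpr34 had 38 and 28 against 29 and 20, a ratio of 0.770 (0.521 to 1.13), while P2ry13 and Tmem119 lay between, at 0.346 (0.112 to 0.910) and 0.330 (0.119 to 0.800). These intervals cover counting error within 2 libraries a genotype, not the spread between embryos.

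Within replicate 2 the labelled genotypes did not separate for P2ry12, Cx3cr1, Siglech or Fcrls. P2ry12 had 10 and 4 UMIs in the libraries labelled wild-type saline and MIA and 17 and 2 in those labelled Csf1r-null saline and MIA, and Cx3cr1 had 18 and 1 against 14 and 2. Siglech and Fcrls followed, with 0 UMIs each in replicate 2 labelled wild-type MIA and 12 and 7 in replicate 2 labelled Csf1r-null saline. A count of 0 allows up to 0.274 CPM in the former, a limit that covers counting error only. Sparc had 636 UMIs in the libraries labelled wild type and 422 in those labelled null, a ratio of 0.733 (0.646 to 0.830), and Olfml3 193 and 108, a ratio of 0.618 (0.484 to 0.786), so that Olfml3 lay below 1 here and above 1 in replicate 1. Gpr34 had only 12 UMIs in the libraries labelled wild type and 15 in those labelled null, a ratio of 1.38 (0.603 to 3.23).

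Over all 8 libraries by label, no gene was called between genotypes (0% of 14509 tested, 440 at an unadjusted p under 0.05, 0 by DESeq2). P2ry13 and Tmem119 were too low to be tested. The other 7 had log2 fold changes, null minus wild type, between -3.59 (Siglech, SE 1.74) and -0.16 (Gpr34, SE 0.62), with a median of -1.46. Without the 2 libraries against their labels no gene was called either, with 147 genes at an unadjusted p under 0.05. Between MIA and saline no gene was called in wild type (0% of 14509, 802 at an unadjusted p under 0.05, 4 by DESeq2) or in Csf1r-null nuclei (0%, 35, 1 by DESeq2). In wild type the 7 genes lay between -1.67 (Cx3cr1, SE 1.30) and -0.41 (Olfml3, SE 0.35), and in null nuclei the highest was 0.38 (Olfml3, SE 0.36). The lowest there was Siglech, which had 0 UMIs in both null MIA libraries, so that its fitted value of -5.92 (SE 3.18) depends on the prior count and is no bound. Without the 2 libraries against their labels all 9 genes were tested and an arm was left with 1 library in each genotype, which is assumed to vary like the others. In wild type they then lay between -0.92 (Cx3cr1) and 0.04 with a median of -0.39, and no gene was called (187 at an unadjusted p under 0.05). In null nuclei their median was 0.23, and 2 genes were called, neither of them among the 9.

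The nuclei that carried at least 2 of 5 microglia markers, Csf1r left out, numbered 30 of 43456. They came from the libraries labelled wild-type saline replicates 1 and 2 (10 and 5), wild-type MIA replicate 1 (9) and Csf1r-null saline replicate 2 (6), and from no other. These 30 nuclei held 86.4% of the 66 UMIs of Siglech, 81.5% of the 81 of Cx3cr1, 78.1% of the 64 of Fcrls and 67.1% of the 82 of P2ry12. They held 56.7% of the 30 UMIs of P2ry13, 20.4% of the 142 UMIs of Gpr34, 19.1% of the 47 of Tmem119, 2.82% of the 674 of Olfml3 and 0.802% of the 2370 of Sparc.

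Sparc was instead counted at 1357 CPM in 68 nuclei with at least 2 of 7 markers of endothelium and pericytes, and at 332 in the 30 microglia-marker nuclei. The other nuclei held 88.4% of the UMIs of Sparc and 96.3% of those of Olfml3, at 20.1 and 6.24 CPM. They also held 80.9% of those of Tmem119 and 79.6% of those of Gpr34. The Gpr34 UMIs of the other nuclei were 23, 26, 29 and 20 in the libraries of replicate 1. In those of replicate 2 they were 4, 3, 4 and 4. The cause of this gap between replicates was not tested. For 5 of the 9 genes, P2ry12, P2ry13, Cx3cr1, Siglech and Fcrls, most UMIs of the cortex thus lay in the 30 microglia-marker nuclei. For Tmem119, Gpr34, Olfml3 and Sparc they did not. A microglial nucleus with fewer than 2 of the 5 markers counts among the other nuclei. The part of such nuclei, and of overlapping genes such as Cask at Gpr34, was not tested.

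**Figure D5:**
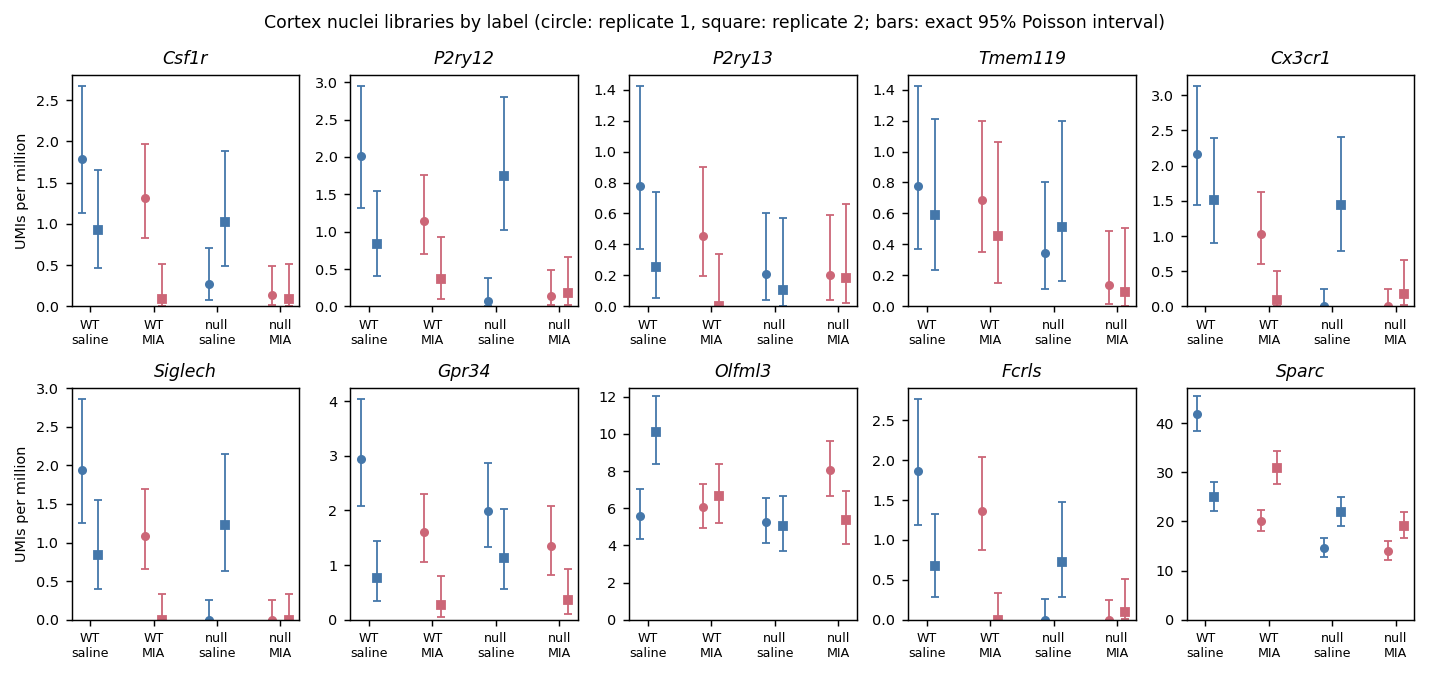
Level of Csf1r and of each of the 9 genes in CPM in every nuclei library by its label (circles for replicate 1, squares for replicate 2, blue for saline and red for MIA), with exact 95% Poisson intervals for counting error. Wild-type MIA replicate 2 lies low and Csf1r-null saline replicate 2 high for Csf1r, P2ry12, Cx3cr1, Siglech and Fcrls, while Olfml3 and Sparc are counted in all 8 libraries.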

How the data were processed

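Sorted microglia (18 libraries) and cortex nuclei (8 libraries) had been sequenced with a droplet method for single cells. The deposited matrices hold raw UMI counts from the authors' Cell Ranger run (mm10). Those of the microglia and of nuclei replicate 2 hold only barcodes already called as cells (337 to 7246 and 4653 to 6198 a library), and those of nuclei replicate 1 hold all 6794880 barcodes. Per the file headers this was version 3.1.0, except for nuclei of replicate 2 (6.0.1), and the submitters' processing notes name 3.1.0. The study's clusters, its doublet filter and its removal of non-microglial clusters were not used. The cutoffs on genes, UMIs and mitochondrial UMIs given below are the same as the study's.

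Filters were 500 genes and 20% mitochondrial UMIs for microglia, and 500 UMIs and 200 genes for nuclei. Counts were summed per library, the unit of replication. The sums were fitted with edgeR 4.0.16 in R 4.3.3 (quasi-likelihood test, TMM, filterByExpr, Benjamini-Hochberg over all genes tested, threshold 0.05). The P14 and E15 steps shared 1 model per treatment, and each E15 group serves in both of its steps. DESeq2 1.42.0 was an alternative. The fits were tested on simulated counts. No doublet caller was run, and leaving out cells over 3 times the median UMIs of their library stood in for one. The study split its sums by the sex called per cell and fitted batch, which was not done here. The depth was 6160925 to 105751888 UMIs per microglia library and 9897721 to 17605575 per nuclei library.

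The members and lists were chosen with earlier results of these data known. The 9 genes were all reported, and up to 4 genes of each other list, those with the smallest p-values, could be named. A result of the list of regulators is not reported here. Cells were thinned in Python 3.11.15 with numpy 2.4.6. The 95% intervals of counts and of ratios of counts are exact and cover counting error only, as do floors of 3 counts. Those of fitted log2 fold changes are 1.96 SE on either side.

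Replicates of a group differed by more than sampling noise in every pair. Among the P14 saline libraries 3F and 3M differed least. Their chi-square per degree of freedom was 9.69, against 19.3 to 43.7 in the other pairs. Deviations of same-numbered libraries from their group means correlated at 0.227 to 0.429 between the E15 groups and at 0.483 to 0.702 among the nuclei, so the numbers were taken as pairs there, from the data and, for the nuclei, from the shared software of each number. At E13 (0.052 to 0.430) and P14 (-0.005 to 0.309) they were not.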

Additional observations from a re-analysis of the deposited data

Results flagged for a closer look

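Sparc in P14 saline replicate 2 stood apart from the other libraries of its group, at 5953 CPM against 7499, 7533 and 7505. The gap to the nearest library was 0.979 of the range of the group, above the value that chance passes in about 1 of 20 groups of 4. Without shared barcodes the same library was at 5954 CPM, against 7547, 8085 and 7890, and its gap to the nearest no longer passed that value. It was the 1 of 9 genes with such a library in the P14 saline group, the only group large enough for this check.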

How the results depend on the processing

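Over the alternatives other than leaving out 1 library, the number of the 9 genes called stayed within 1.5 times its value in each of the 12 comparisons. In MIA microglia it went from 6 to 4 with the replicate block and to 7 with DESeq2 between E13 and E15, and from 8 to 6 with the block between E15 and P14. Leaving out 1 library gave 5 to 8 there. Where the numbers pair the libraries (E15 and nuclei) the block gave 0 called genes, as without it. At E13 it gave 1 called gene, none of the 9. Between ages the numbers were not taken as pairs, and there the block moved the count of all genes called in MIA from 2213 to 796 and from 3984 to 2406. Between E15 and P14 in saline, same-numbered libraries correlated at -0.049 to 0.2497 over all cells and at 0.103 to 0.333 without shared barcodes, and the block called 9 of the 9 genes in both.

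Counts of all genes moved more. With DESeq2, MIA microglia gave 3640 called genes between E13 and E15. Leaving out 1 library gave 2270 to 6190 in saline between E13 and E15 in place of 4080, 680 to 3738 in MIA, as few as 1100 in MIA between E15 and P14, and 0 to 4 between treatments at E13. Nuclei without the low-count filter gave 30 called genes between genotypes, 59 between treatments in wild type and 3 in null, none of the 9, and Csf1r-null nuclei gave 2 without the libraries against their labels. The cause was not tested.

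Directions that turned belonged to uncalled differences. The log2 fold change of P2ry12 after MIA at E13 was -0.035 without cells over 3 times the median UMIs. Without both E15 replicates 1, chosen after the data had been seen, the difference between ages in the response of Sparc was -0.0022 for E15 minus E13 and 0.10 for P14 minus E15. Leaving out 1 library gave ranges of -0.0057 to 0.20 (P2ry12, MIA at E13), -0.0077 to 0.18 (P2ry12, MIA at E15), -0.21 to 0.079 (Fcrls, MIA at P14) and -0.0012 to 0.30 (Cx3cr1, saline E13 to E15). For the differences in response they were -0.15 to 0.026 (Olfml3, E15 minus E13), -0.070 to 0.35 (Cx3cr1, P14 minus E15) and -0.26 to 0.051 (Sparc, P14 minus E15), and for nuclei -0.73 to 0.72 (Gpr34 between genotypes) and -0.85 to 0.22 (Olfml3, MIA in wild type). Siglech gave no value between treatments in null nuclei where all remaining libraries were at 0. Fcrls between E15 and P14 in saline lost its call without the low-count filter (edgeR). All 54 shares of cells moved when cells were thinned to 1000 UMIs.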
